A study of Rattus norvegicus with 12 samples.

Results

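Myosin light chains and a small group of atrial muscle transcripts were followed through both ventricles of the neonatal heart, the left (LV) and the right (RV). The genes were Myl1, Myl2, Myl3, Myl4, Myl7, Mylk3, Sln and Bmp10, that is 8 of the 32545 genes listed. They were picked by symbol with their levels in these libraries already known, so their levels and fitted differences are given as a description, without a test of their own. RNA was sequenced from the free wall myocardium of SD (Sprague–Dawley) rats at postnatal day 7 (P7). At P1 the rats had received either a fistula between the abdominal aorta and the inferior vena cava, which volume-loads the heart (VO), or a sham operation without it. Each of the 4 groups (LV and RV, sham and VO) had 3 libraries. The labels do not say whether the 3 libraries of a group came from separate animals, or whether an LV and an RV library with the same number shared an animal. The study's text speaks of the libraries of a group as individuals. Unless they were, the spread between libraries is partly technical. The fistula loads both ventricles, and each library is RNA of the whole free wall with all its cell types.

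Each myosin head carries an essential and a regulatory light chain. Rodent ventricle uses Myl3 (essential) and Myl2 (regulatory), atrium uses Myl4 and Myl7, and Myl4 is also made in the fetal ventricle. Mylk3, the cardiac myosin light chain kinase, phosphorylates the regulatory chain. Sln encodes sarcolipin, a small atrial inhibitor of the calcium pump of the sarcoplasmic reticulum. Bmp10 encodes a secreted ligand of the BMP family, made by the trabeculae of the embryonic heart and later mainly by the right atrium.

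Between 14121713 and 16871371 reads fell on genes in each library, and 17128 to 17807 genes were above 0. Levels are FPKM (reads scaled to gene length and library depth), which allow genes to be compared per length. All 8 genes were among the 13910 tested, whose mean FPKM was 0.5 or more, but Sln and Bmp10 reached that mean only through sham RV replicate 1 and VO RV replicate 2. Both libraries lay above all 4 other RV libraries in 4 of the 8 genes (Sln, Bmp10, Myl7 and Myl4) and below them in 2 (Myl2 and Myl3), and results that rest on them are given with and without them. Markers of the labelled tissue were present in all libraries. The summed FPKM of 6 cardiomyocyte markers was 18706 to 19414 in sham LV, 15543 to 18464 in sham RV and, after VO, 19228 to 20368 in LV and 13855 to 19069 in RV.

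The promoters of 4 members are shown because Bmp10, Myl7 and Myl4 were high in the same library while Myl3 was at its lowest there. RefSeq promoters (build GRCr8, 250 bases before to 50 bases after the start of the gene) matched 6 of the 8 members, all but Sln and Myl2. Short sequences were searched on both strands. The TATA box letters TATAAA occurred in 14.2% of 33469 promoters. The letters AGATAA, bound by factors of the GATA family, occurred in 11.6%. The T-box letters AGGTGT occurred in 13.6%, and the muscle element with letters CATTCC in 14.2%. The MEF2 sequence (3.29%) and the CArG box (1.64%) were searched as well. Capitals mark matches, which did not overlap each other in these 4 promoters. The Bmp10 promoter (chr4:121429125-121429424, plus strand) held AGATAA at 2 places, the Myl4 promoter (chr10:89975900-89976199, plus strand) held AGGTGT and, on the other strand, TATAAA, and the Myl3 promoter (chr8:119616844-119617143, plus strand) held CATTCC once on each strand and a CArG box. The Myl7 promoter (chr14:84996575-84996874, minus strand) held none of the 6 in this window.
Bmp10: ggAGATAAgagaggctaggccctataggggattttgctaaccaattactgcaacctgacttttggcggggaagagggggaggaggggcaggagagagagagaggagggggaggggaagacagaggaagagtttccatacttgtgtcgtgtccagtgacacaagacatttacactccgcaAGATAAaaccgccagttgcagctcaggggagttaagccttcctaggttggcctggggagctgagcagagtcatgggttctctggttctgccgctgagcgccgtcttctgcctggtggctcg
Myl4: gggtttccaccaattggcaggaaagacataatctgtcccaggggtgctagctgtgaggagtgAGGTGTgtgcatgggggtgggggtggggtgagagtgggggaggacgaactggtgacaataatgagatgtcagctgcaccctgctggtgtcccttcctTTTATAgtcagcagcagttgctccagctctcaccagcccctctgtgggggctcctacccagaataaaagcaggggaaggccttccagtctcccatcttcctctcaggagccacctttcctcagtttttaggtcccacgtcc
Myl7: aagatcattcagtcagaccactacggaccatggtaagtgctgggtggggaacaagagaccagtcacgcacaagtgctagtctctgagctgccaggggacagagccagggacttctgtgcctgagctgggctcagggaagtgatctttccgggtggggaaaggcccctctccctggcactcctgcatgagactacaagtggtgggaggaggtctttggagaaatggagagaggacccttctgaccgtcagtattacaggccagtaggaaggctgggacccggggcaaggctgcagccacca
Myl3: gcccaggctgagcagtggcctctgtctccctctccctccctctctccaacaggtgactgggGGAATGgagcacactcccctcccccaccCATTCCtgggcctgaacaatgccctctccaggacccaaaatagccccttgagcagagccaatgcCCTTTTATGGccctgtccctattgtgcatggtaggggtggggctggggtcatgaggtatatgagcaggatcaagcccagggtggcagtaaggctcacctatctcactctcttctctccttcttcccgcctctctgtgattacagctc
None of the sequences searched was found in all 3 windows of the genes that were high together.

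Myl3 was the most abundant member by far. The positions that follow are those the deposited table lists, whose genome build is not given in the sources used here and which differ from GRCr8. Myl3 (ENSRNOG00000020955, chromosome 8, 119030875 to 119036996) was at 6659, 7457 and 7026 FPKM in sham LV, in order of replicate number. It was at 5180, 5876 and 6292 in sham RV and, after VO, 6790, 6289 and 6723 in LV and 6673, 3977 and 6587 in RV. All 3 sham LV libraries lay above all 3 sham RV libraries, whereas the VO groups overlapped and VO RV replicate 2 was the lowest of the 12. The 1217 tested genes in the length class of Myl3 (902 bases) had medians of 0.07, 0.13 and 0.10 in sham LV and -0.14, -0.10 and 0.02 in sham RV, on the log2 scale relative to each gene's mean over the 12 libraries. As means ± standard deviation (SD, n = 3), Myl3 was at 7047 ± 399 FPKM in sham LV, 5783 ± 562 in sham RV and, after VO, 6601 ± 272 in LV and 5746 ± 1533 in RV. Without the 2 libraries that stood apart, the sham RV libraries held 5876 and 6292 FPKM and the VO RV libraries 6587 and 6673.

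Myl2 (ENSRNOG00000030848, chromosome 12, 39951987 to 39958239), the ventricular regulatory chain, was at 1129, 375 and 1093 FPKM in sham LV and at 618, 805 and 808 in sham RV. In VO LV it was at 1061, 967 and 997 FPKM, and in VO RV at 1130, 533 and 967. The groups overlapped in every comparison. Its lowest value came from sham LV replicate 2, where Myl3 was at its highest and Myl2 was held by 2918 reads. That library had 13.5% of its reads on mitochondrial genes, against 15.5% to 25.4% elsewhere. The part of this in the Myl2 value was not tested. The ratio of Myl2 to Myl3 was 0.0503 in sham LV replicate 2 and 0.119 to 0.170 in the other libraries, and the VO RV library with the least Myl3 lay within that range, at 0.134.

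**Figure D1:**
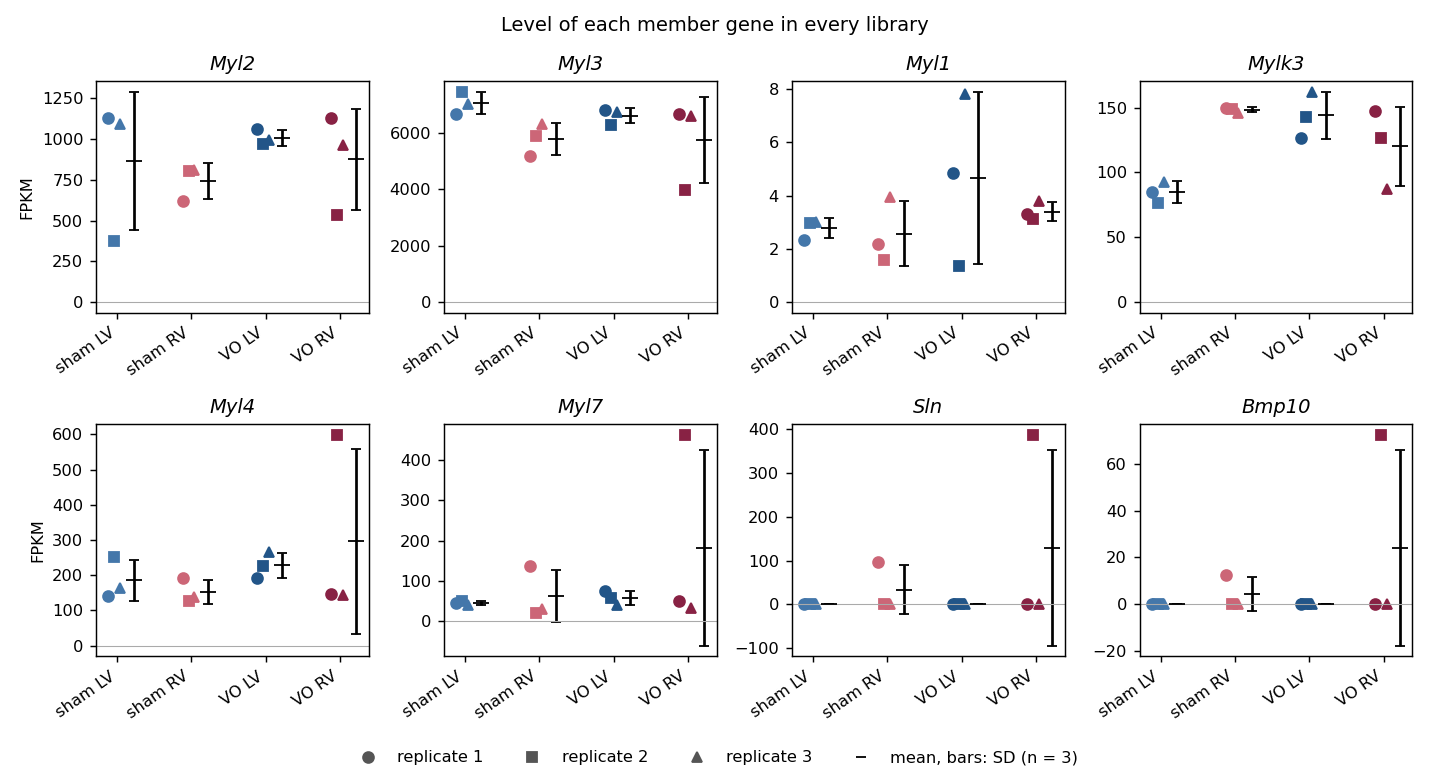
FPKM (vertical axis, linear, a separate scale for each gene) of the 8 genes in the 12 libraries by group, with symbols for replicate number and the mean ± SD of 3 libraries beside them. Sln and Bmp10 lie near 0 except in sham RV replicate 1 (97.7 and 12.6 FPKM) and VO RV replicate 2 (388 and 72.4 FPKM), and Mylk3 has its lowest mean in sham LV (84.7 FPKM).

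Of the atrial chains, Myl4 (ENSRNOG00000050675, chromosome 10, 92628356 to 92638100) was at 141, 250 and 164 FPKM in sham LV and at 191, 126 and 138 in sham RV. It was at 193, 226 and 265 FPKM in VO LV and at 147, 599 and 142 in VO RV. VO RV replicate 2 was thus the highest library by more than the whole range of the others, and every group overlapped with the group it was compared with. Its lowest level in any library was 126 FPKM, and Myl3 stood far higher in each library.

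Myl7 (ENSRNOG00000014409, chromosome 14, 86143862 to 86147553) was at 45.9, 50.4 and 40.3 FPKM in sham LV and at 138, 21.4 and 31.0 in sham RV. In VO LV it was at 75.5, 57.1 and 40.7 FPKM, and in VO RV at 51.4, 463 and 34.5. The highest levels again came from VO RV replicate 2 and then sham RV replicate 1. In bulk tissue, fewer cells of a type and less RNA per cell cannot be told apart, which holds for this and all later levels. Without the 2 libraries, Myl7 was at 21.4 and 31.0 FPKM in sham RV and at 34.5 and 51.4 in VO RV, and Myl4 was at 126 and 138 in sham RV and at 142 and 147 in VO RV.

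The balance of atrial over ventricular chains was given as a ratio of FPKM, which rests on the gene lengths of the deposited table. Myl7 over Myl2 was 0.868 in VO RV replicate 2, 0.224 in sham RV replicate 1 and 0.134 in sham LV replicate 2, the library with little Myl2. The other 9 libraries lay between 0.0265 and 0.0711. Myl7 therefore came close to the level of Myl2 in a single RV library. Myl4 over Myl3 was 0.151 in VO RV replicate 2 and 0.0211 to 0.0394 in the other 11 libraries. The VO LV libraries were at 0.0284, 0.0359 and 0.0394 against 0.0211, 0.0335 and 0.0233 in sham LV, ranges that overlapped.

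**Figure D2:**
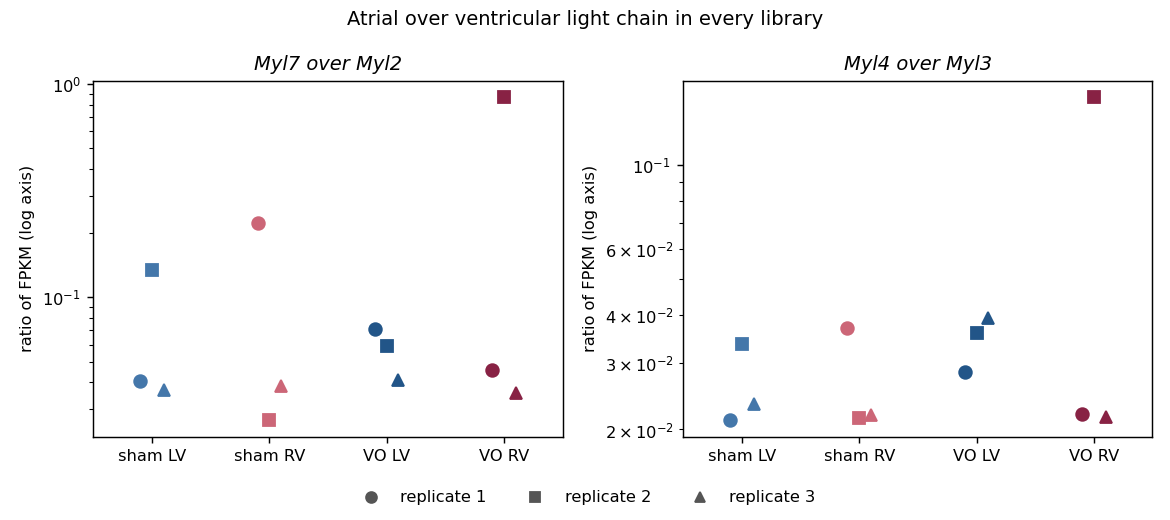
Ratio of FPKM (vertical axis, log scale) of the atrial to the ventricular regulatory chain (left, Myl7 over Myl2) and of the atrial to the ventricular essential chain (right, Myl4 over Myl3) in each of the 12 libraries by group. VO RV replicate 2 is highest in both, at 0.868 and 0.151.

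Sln and Bmp10 were all but absent from 10 of the 12 libraries. Sln (ENSRNOG00000009047, chromosome 8, 58431407 to 58435654) was at 388 FPKM (2073 reads) in VO RV replicate 2 and at 97.7 FPKM (481 reads) in sham RV replicate 1. It was held by 0 to 3 reads in each of the others, with 0.218, 0 and 0 FPKM in sham LV, 0.236 and 0.678 in the other sham RV libraries, 0.623, 0 and 0.197 in VO LV, and 0.451 and 0 in the other VO RV libraries. A count of 0 allows up to 3 reads, which is 0.607 to 0.727 FPKM of Sln in the 4 libraries at 0. Bmp10 (ENSRNOG00000009316, chromosome 4, 119225040 to 119230728) followed the same libraries, with 72.4 FPKM (1723 reads) in VO RV replicate 2 and 12.6 FPKM (276 reads) in sham RV replicate 1. In the other 10 libraries it was held by 0 to 3 reads, at 0.152 FPKM or less. The 2 libraries at 0 allow up to 0.136 and 0.140 FPKM. These limits cover counting error only. The share of reads on mitochondrial genes was 15.5% in VO RV replicate 2 and 16.8% in sham RV replicate 1, the lowest of the RV libraries, against 19.7% to 23.2% in the other 4, and its part in these levels was not tested. No group was high as a whole: 1 library of sham RV and 1 of VO RV carried each gene.

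Ranked by the ratio of VO RV replicate 2 to the highest of the 10 other libraries (leaving out sham RV replicate 1), Sln was the first and Bmp10 the second of 13910 genes. The same genes took the same ranks in sham RV replicate 1. Both genes were chosen with these levels known and passed the filter on low values only through these 2 libraries, so nothing is read from their ranks. Myl7 ranked 14 in VO RV replicate 2 (6.13-fold) and 26 in sham RV replicate 1 (1.83-fold), and Myl4 ranked 50 (2.26-fold) in VO RV replicate 2. In all, 80 genes exceeded 2-fold in VO RV replicate 2 and 21 in sham RV replicate 1. They shared 11 genes, which is 11 of the 80 and 11 of the 21. Both counts divide by the same 10 libraries, and shared genes such as Sln and Bmp10 passed the filter only through these 2 libraries. Nothing is read from the overlap, or from the ranks of Myl7 and Myl4, which were also chosen with their levels known. Mybphl, a relative of the cardiac myosin binding protein C, ranked 3 in VO RV replicate 2, at 21.6 FPKM there, 4.17 FPKM in sham RV replicate 1 and 0.347 FPKM or less elsewhere.

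Atrial marker genes outside the 8 were counted in the same 2 libraries. Of 15 tested, 10 were higher in VO RV replicate 2 than in all 4 other RV libraries and 0 lower, compared with 25.1% of all tested genes that were higher. In sham RV replicate 1, 9 were higher than all 4 and 1 was lower, compared with 26.1%. Mybphl, 1 of the 15, passed the filter on low values only through these 2 libraries, and without it 9 of 14 and 8 of 14 were higher. The summed FPKM of the 16 markers listed was 3489 in VO RV replicate 2, 986 in sham RV replicate 1 and 293 to 426 in the other RV libraries. Nppa, which encodes the atrial natriuretic peptide precursor, made up most of the sum in these 2 libraries, at 3037 and 625 FPKM, and was at 64.2, 133, 113 and 73.3 FPKM in the other 4. Mybphl and Stard10 were also high in both, the latter at 32.8 and 10.1 FPKM against 3.54 to 4.82. Gja5, which encodes an atrial gap junction protein, was not, at 4.51 and 4.95 FPKM against 3.66 to 5.49. The marker list was chosen with earlier results of these data known, so nothing is read from these counts. The markers' part in the levels of the members was not tested.

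Nppa alone did not follow Sln. In LV, the marker sum was 712 to 1170 FPKM in sham and 864 to 1758 in VO, of which Nppa made up 519 to 951 and 610 to 1423, while Sln was held by 0 to 3 reads. Nppa is also made by loaded and neonatal ventricular muscle.

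Other cell markers also differed in the 2 libraries, where 24.1% (sham RV replicate 1) and 24.7% (VO RV replicate 2) of all tested genes lay below all 4 other RV libraries. In VO RV replicate 2, all 5 fibroblast markers were above all 4 other RV libraries (summed FPKM 4371 against 2288 to 2692), as were all 4 smooth muscle markers (337 against 144 to 267), and 5 of 6 cardiomyocyte markers were below them. In sham RV replicate 1, 4 of 5 fibroblast markers were above (sum 3236), 1 of 4 smooth muscle markers was above (sum 205) and 4 of 6 cardiomyocyte markers were below (sum 15543 against 18450 to 19069). Ventricular markers fell in the same way in the former library, with 4 of 7 below and none above (sum 1610 against 2172 to 2919). Among them Irx4, a ventricular transcription factor, was at 32.9 FPKM against 56.0 to 58.8. In sham RV replicate 1, 2 of 7 were below and 2 above. Endothelial markers (sums 199 and 202 against 197 to 239) and erythroid markers (2137 and 1098 against 1131 to 2447) were near or within the range of the others. The 2 of 7 ventricular markers below and the 1 of 4 smooth muscle markers above in sham RV replicate 1 were near the shares over all tested genes. Pacemaker markers summed to 7.24 and 6.70 FPKM against 6.14 to 6.57. The part of these markers in the result was not tested.

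**Figure D3:**
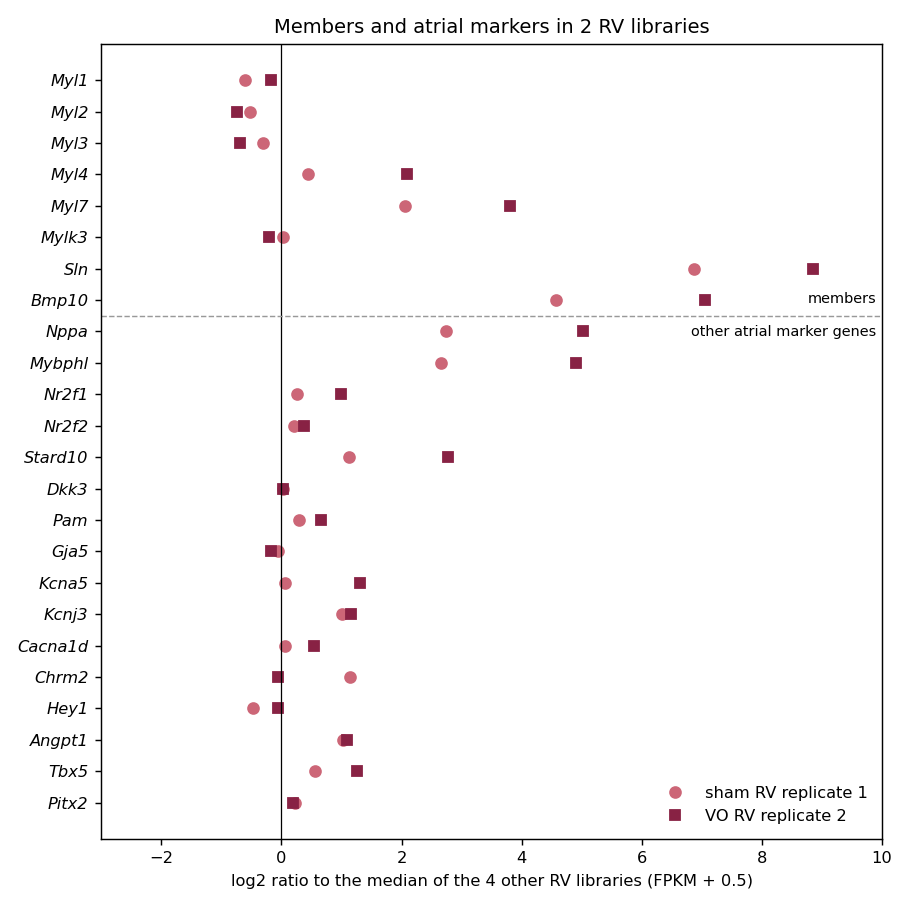
Log2 ratio (horizontal axis, FPKM + 0.5) of sham RV replicate 1 (circles) and VO RV replicate 2 (squares) to the median of the 4 other RV libraries, for the 8 genes (upper part) and 16 other atrial marker genes (lower part). Sln, Bmp10, Myl7 and Myl4 lie to the right of 0 in both libraries, and Myl2 and Myl3 to the left.

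Normal LV and RV were compared first. At P7 in sham rats, 537 of 13910 genes (3.86%) were called DEGs, meaning a Benjamini-Hochberg adjusted p under 0.05 with limma and a fold over 1.3, of which 210 (1.51%) were higher and 327 (2.35%) lower in LV. Of the 8 genes, 1 was among them, Mylk3, which was lower in LV. Since the levels chose the genes, nothing is read from that count. The groups did not overlap for 3 of the 8 genes, namely Myl3 (higher in LV), Mylk3 and Sln (lower in LV, though for Sln the nearest libraries held 1 read each), while this held for 32.2% of all tested genes. The number of DEGs depended on single libraries and was 0 without sham RV replicate 1, 1 without sham LV replicate 2, 3 without sham LV replicate 1, 4 without sham RV replicate 2, 5 without VO LV replicate 2, 173 without VO LV replicate 1 and 185 without sham RV replicate 3, but 872 without VO RV replicate 3. It was 9 without both libraries that stood apart. Among marker lists, DEGs with lower levels in sham LV were 2 of 15 atrial markers (Dkk3 and Chrm2), 1 of 2 pacemaker markers (Hcn4) and 1 of 6 cardiomyocyte markers (Ryr2). Of 3 endothelial markers, 2 were higher (Tie1 and Kdr), and of 7 ventricular markers 1 was higher (Hand1) and 1 lower (Kcnj2). No marker of fast skeletal muscle, smooth muscle, fibroblasts or erythroid cells was called. The part of these markers in the members' differences was not tested.

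The fitted log2 differences of sham LV minus sham RV, on the scale of log2(FPKM + 0.5), were 0.29 ± 0.20 (standard error, SE) for Myl3, 0.07 ± 0.38 for Myl2, 0.26 ± 0.46 for Myl4 and 0.0036 ± 0.86 for Myl7. Of these 4, the Myl3 difference was larger than its SE and the others were not. With the gene-length trend of each library removed, the Myl3 difference was 0.16. Leaving out 1 library at a time moved the Myl2 difference between -0.21 (without sham LV replicate 1) and 0.59 (without sham LV replicate 2). It moved the Myl7 difference between -0.53 (without sham RV replicate 2) and 0.80 (without sham RV replicate 1), and the Myl4 difference was 0.02 without sham LV replicate 2. Sln differed by -2.96 ± 2.27 and Bmp10 by -1.53 ± 1.66, values that depend on the added 0.5. Without sham RV replicate 1 they were -0.72 and -0.05.

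In LV, 13 of 13910 genes (0.0935%) were DEGs between VO and sham, and 0 of the 8. The count ranged with single libraries from 0 (without any one of sham LV replicates 1 and 2 or VO LV replicates 1, 2 and 3) to 555 (without VO RV replicate 3). It was 2 without both libraries that stood apart or without sham RV replicate 3, 4 without sham RV replicate 2, 5 without sham RV replicate 1, 176 without VO RV replicate 1 and 295 without sham LV replicate 3. Mylk3 was the single member whose groups did not overlap, 1 of 8 against 32.4% of all tested genes, and it was higher in VO LV. The log2 differences of VO LV minus sham LV were -0.09 ± 0.20 for Myl3, 0.38 ± 0.38 for Myl2, 0.33 ± 0.46 for Myl4 and 0.30 ± 0.86 for Myl7. The Myl2 value turned to -0.14 without sham LV replicate 2. Sln and Bmp10, with at most 3 reads in each LV library, gave no fold.

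In RV, 0 of 13910 genes (0%) were DEGs between VO and sham by limma, and 0 of the 8. At an unadjusted p under 0.05, 1168 genes passed, 683 of them with a fold over 1.3, and limma-voom on reads recovered from the FPKM also called 0. Without both libraries that stood apart, 2 genes were called. The groups overlapped for all 8 genes, whereas 12.5% of tested genes did not overlap. Myl7 differed by 1.05 ± 0.86 (log2, VO RV minus sham RV) and Myl4 by 0.64 ± 0.46. These turned to -0.10 and -0.05 without VO RV replicate 2. Sln gave 0.38 ± 2.27, with -2.67 without VO RV replicate 2 and 2.61 without sham RV replicate 1, and Bmp10 gave 0.74 ± 1.66, with -1.61 and 2.22. The direction of the atrial transcripts in RV thus turned with which of the 2 libraries entered. Myl3 differed by -0.04 ± 0.20 and Myl2 by 0.18 ± 0.38. These became 0.20 and 0.50 without VO RV replicate 2.

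Between the loaded ventricles, 1 gene of 13910 (0.00719%) was a DEG and 0 of the 8. That gene was Hand1, a transcription factor of the embryonic LV, with 5.21, 4.10 and 4.71 FPKM in VO LV and 0.318, 0.316 and 0.345 in VO RV. Without VO RV replicate 1, 48 genes were called, and 2 without VO RV replicate 2, without sham LV replicate 2 or without both libraries that stood apart. The groups overlapped for all 8 members, against 16.1% of tested genes whose groups did not overlap. Log2 differences of VO LV minus VO RV were 0.24 ± 0.20 for Myl3, 0.27 ± 0.38 for Myl2, -0.04 ± 0.46 for Myl4 and -0.74 ± 0.86 for Myl7. Without VO RV replicate 2 those of Myl3 and Myl2 were -0.0042 and -0.05, and those of Myl4 and Myl7 turned to 0.65 and 0.41. Sln differed by -2.96 ± 2.27 and Bmp10 by -2.37 ± 1.66, which became 0.09 and -0.02 without that library.

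The response of LV to VO minus that of RV was the last comparison, with 583 DEGs of 13910 (4.19%). Of them 481 (3.46%) were higher and 102 (0.733%) lower, and 1 was among the 8, Mylk3. The sham libraries entered it with opposite signs to those of VO, and it shares all of its libraries with the comparisons above. The count was 0 without any one of sham LV replicate 1, sham LV replicate 2, sham RV replicate 1, VO LV replicate 2 or VO LV replicate 3. It was 4 without sham RV replicate 2, 115 without VO RV replicate 3, 239 without VO LV replicate 1, 926 without VO RV replicate 2 and 1004 without VO RV replicate 1, but 2 without both libraries that stood apart.

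**Figure D4:**
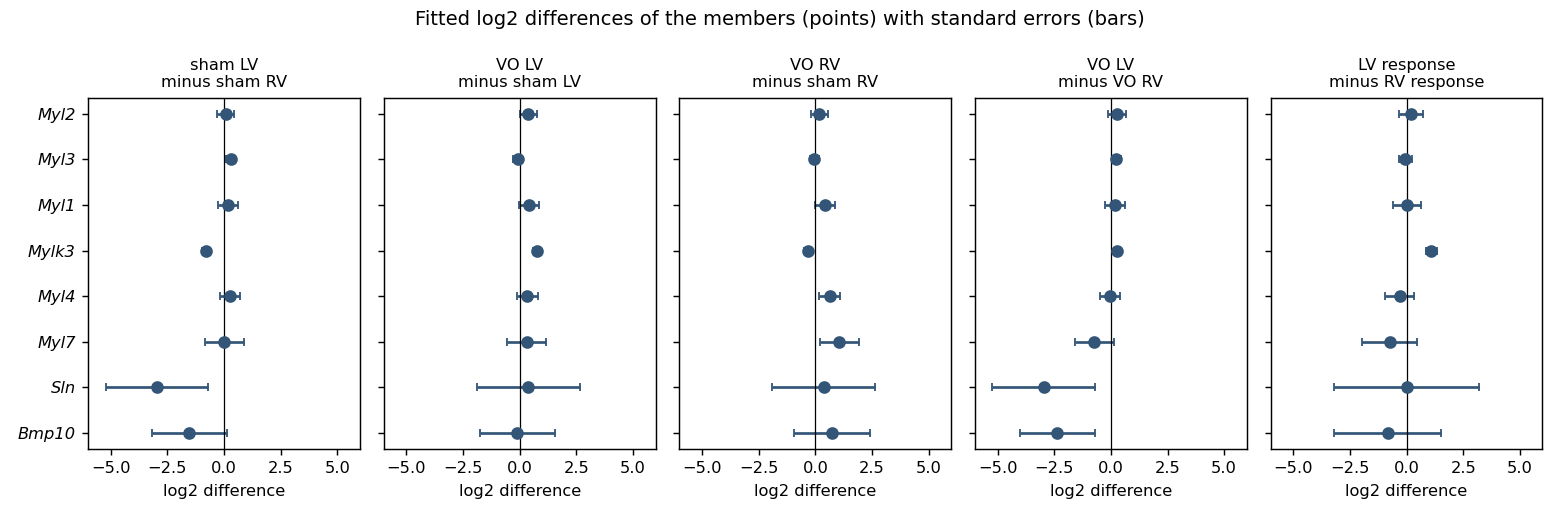
Fitted log2 differences (horizontal axis, points) with standard errors (bars) of the 8 genes in the 5 comparisons, from limma on log2(FPKM + 0.5). The bars of Sln and Bmp10 are the widest, from the 2 RV libraries that stood apart, and Mylk3 has narrow bars with -0.81 in sham LV minus sham RV and 1.09 in the difference of the responses.

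Mylk3 (ENSRNOG00000017546, chromosome 19, 27404712 to 27441536) was at 84.9, 76.1 and 92.9 FPKM in sham LV and at 150, 149 and 146 in sham RV. In VO LV it was at 127, 143 and 162 FPKM, and in VO RV at 147, 126 and 87.4. Every sham LV library was lower than each library of sham RV and VO LV, and the VO RV libraries reached from near the sham LV level to that of sham RV. Its means ± SD were 84.7 ± 8.38 FPKM in sham LV, 148 ± 1.98 in sham RV and, after VO, 144 ± 17.8 in LV and 120 ± 30.4 in RV. From low to high the order was sham LV, VO RV, VO LV and sham RV, and each group overlapped with the next in that order. Of the libraries high in the atrial transcripts, VO RV replicate 2 (126 FPKM) lay within the range of the other RV libraries, and sham RV replicate 1 (150 FPKM) was level with sham RV replicate 2 (149 FPKM).

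The log2 difference of Mylk3 was -0.81 ± 0.17 for sham LV minus sham RV and 0.76 ± 0.17 for VO LV minus sham LV. It was -0.33 ± 0.17 for VO RV minus sham RV, 0.28 ± 0.17 for VO LV minus VO RV, and 1.09 ± 0.23 for the response of LV minus that of RV. Over the alternatives tried, these values ranged from -0.88 to -0.74, 0.67 to 0.85, -0.49 to -0.11, 0.07 to 0.44 and 0.88 to 1.25, so that the sign held in each of the 5. Its call as a DEG between the sham groups was lost without any one of sham LV replicates 1 and 2, sham RV replicates 1, 2 and 3, and VO LV replicate 2. The call in the difference of the responses was lost without any one of sham LV replicates 1 and 2, sham RV replicates 1 and 2, and VO LV replicates 2 and 3. Both calls were also lost with all genes above 0 tested, with replicate number as a block in the model, and without both libraries that stood apart.

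The genes with the most similar profile over the 12 libraries, of the 12659 whose mean FPKM was 1 or more, were Mtus2 (r = 0.988), Ccdc141 (r = 0.985) and Klhl41 (r = 0.983). These are Pearson correlations of log2 values, given as a description, and the points share library and depth. Mtus2 was at 8.79, 6.94 and 8.93 FPKM in sham LV, 18.5, 17.5 and 16.9 in sham RV and, after VO, 15.1, 15.2 and 19.6 in LV and 16.2, 13.2 and 9.29 in RV. As for Mylk3, the lowest VO RV library was replicate 3 and the highest VO LV library was also replicate 3. For Sln and Bmp10 the most similar genes were Nupr1 (r = 0.979 and 0.986) and Mybphl (r = 0.967 and 0.986). In the 10 other libraries these values were -0.27 and -0.22 for Nupr1 and -0.12 and -0.26 for Mybphl, so the likeness came from the 2 RV libraries. Myl2 was most like Mrpl42 (r = 0.955) and Myl3 most like Tmem147 (r = 0.977). For Myl4, Myl7 and Myl1 the most similar genes were Col24a1 (r = 0.868), Col8a2 (r = 0.946) and Helq (r = 0.855).

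**Figure D5:**
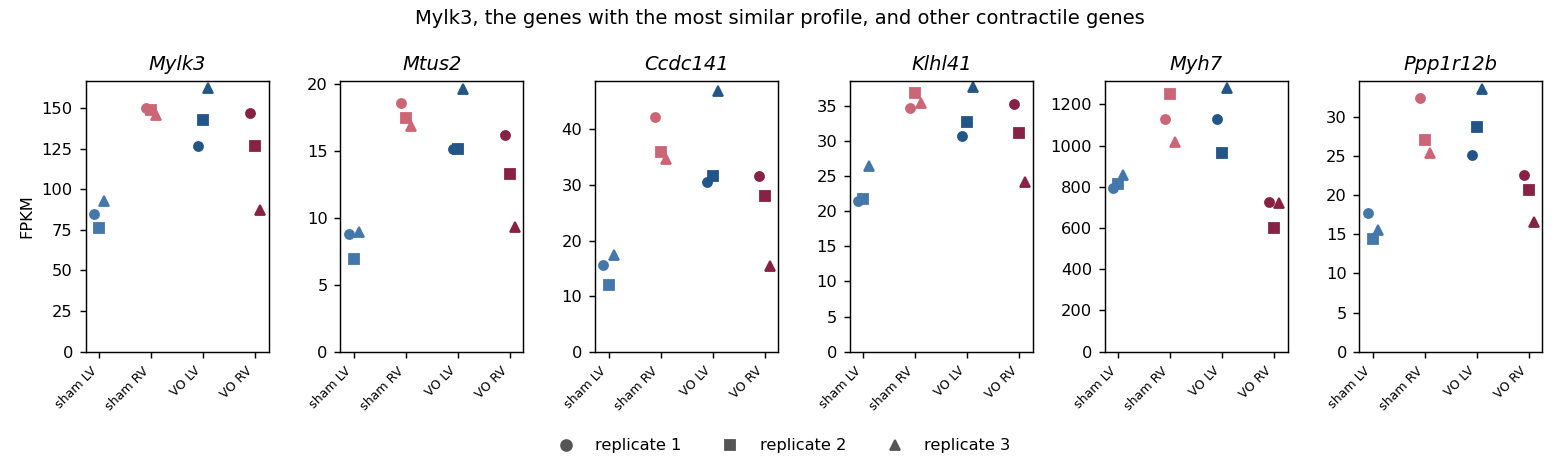
FPKM (vertical axes, each from 0) of Mylk3, its 3 most similar genes (Mtus2, Ccdc141 and Klhl41) and the contractile genes Myh7 and Ppp1r12b in the 12 libraries by group, with symbols for replicate number. All 6 are lower in the 3 sham LV libraries than in the 3 sham RV libraries.

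Genes that act with the light chains, with sarcolipin and with BMP10 were then counted. Their lists were chosen with earlier results of these data known, so nothing is read from the counts. Of 15 tested light chains and regulators outside the 8 (17 listed), 1 was a DEG between the sham ventricles and 1 in the difference of the responses, both times Ppp1r12b, a targeting subunit of myosin phosphatase found in heart. Over all tested genes 3.86% and 4.19% were called. The list held 0 DEGs in both comparisons without any one of sham LV replicates 1 and 2, sham RV replicates 1 and 2, and VO LV replicate 2, and 0 in the latter also without VO LV replicate 3. Ppp1r12b was at 17.7, 14.4 and 15.5 FPKM in sham LV, 32.4, 27.0 and 25.4 in sham RV and, after VO, 25.1, 28.7 and 33.7 in LV and 22.6, 20.7 and 16.5 in RV. Its sham LV libraries lay below all sham RV and VO LV libraries, and its log2 differences were -0.81 ± 0.15 (sham LV minus sham RV; limma, adjusted p = 0.0325) and 1.35 ± 0.21 (difference of the responses; adjusted p = 0.0249). Myl9, the smooth muscle regulatory chain, was at 723 to 1069 FPKM in sham LV and 849 to 1116 in sham RV, and the kinase Mylk at 12.2 to 15.3 and 9.52 to 12.6. Both had an adjusted p above 0.05 in all 5 comparisons. The list's median log2 difference was 0.24 between the sham ventricles and -0.30 in the difference of the responses, beside 0.01 and -0.04 over all tested genes.

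Of 13 tested thick filament genes, 1 was a DEG between the sham ventricles, Smyd1 (lower in LV by 1.67 on the log2 scale), a methyltransferase of muscle needed for sarcomere assembly. Over all tested genes, 2.35% were lower. With 1 library left out, the list's count ranged from 0, as without sham LV replicate 1, to 3, as without VO RV replicate 2. In the difference of the responses 6 were DEGs, all higher, compared with 3.46% of all tested genes, and the median was 0.52 beside -0.04 over all tested genes. They included the heavy chains Myh7 (1.18 ± 0.18; adjusted p = 0.0249) and Myh6 (0.89 ± 0.18; adjusted p = 0.0319), Smyd1 (2.68 ± 0.41), the M-band protein gene Myom1 (0.68 ± 0.14) and the myosin chaperone gene Unc45b (0.52 ± 0.11). Myh7, the slow heavy chain, was at 796, 815 and 857 FPKM in sham LV, 1132, 1251 and 1018 in sham RV and, after VO, 1131, 966 and 1280 in LV and 725, 598 and 720 in RV. The VO RV libraries were all below the sham RV libraries and the VO LV libraries all above those of sham LV. In VO RV replicate 2, 7 of the 13 thick filament genes were below all 4 other RV libraries and 2 above. Over all tested genes these shares were 24.7% and 25.1%. In sham RV replicate 1, 2 were below and 3 above, compared with 24.1% and 26.1%. The list held 7 DEGs in the difference of the responses without VO RV replicate 2 and 0 without both libraries that stood apart. All counts of this comparison rest on the libraries named for the 583 DEGs. The thick filament list was chosen with earlier results of these data known, so nothing is read from its counts.

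The partners of sarcolipin are the calcium pump Atp2a2, its other inhibitor Pln and the genes of calcium release and extrusion. Of 14 tested, 3 were lower in sham LV than sham RV and the same 3 were higher in the difference of the responses, namely Atp2a2 (-0.82 ± 0.19 and 1.23 ± 0.27), the sodium-calcium exchanger Slc8a1 (-1.87 ± 0.38 and 2.63 ± 0.53) and the release channel Ryr2 (-0.94 ± 0.19 and 1.61 ± 0.27). Over all tested genes, 2.35% were lower in the former comparison and 3.46% higher in the latter. The list's medians were -0.10 and 0.22. It held 0 DEGs in both comparisons without any one of sham LV replicates 1 and 2, sham RV replicates 1 and 2, and VO LV replicate 2, without the 2 libraries that stood apart, and, in the latter, also without VO LV replicate 3. In VO RV replicate 2, 7 of the 14 lay below and 3 above all 4 other RV libraries, compared with 24.7% and 25.1% of all tested genes. In sham RV replicate 1, 4 lay below and 6 above, compared with 24.1% and 26.1%. Pln was at 1604, 1054 and 1568 FPKM in sham LV, 1361, 1587 and 1484 in sham RV and, after VO, 1513, 1422 and 1537 in LV and 1590, 964 and 1382 in RV, with overlap in all comparisons. The ratio of Sln to Pln was 0.402 in VO RV replicate 2, 0.0718 in sham RV replicate 1 and at most 0.000457 in the other 10. Pln thus stood above Sln in every library. Atp2a1, the skeletal muscle pump, was at 0.114 to 1.54 FPKM.

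For BMP10, 25 genes of its receptors, mediators, antagonists and targets were tested. Of them 2 were lower in sham LV than sham RV, Bmpr1a (-0.95 ± 0.23), a type I receptor, and Bmp7 (-1.14 ± 0.26), a related ligand. In the difference of the responses 2 were higher, the cardiac transcription factor Tbx20 (2.73 ± 0.69) and the proprotein convertase Furin (0.62 ± 0.15). Over all tested genes, 2.35% were lower in the former and 3.46% higher in the latter. The list held 0 DEGs in both comparisons without any one of sham LV replicates 1 and 2, sham RV replicates 1 and 2, and VO LV replicates 1 and 2. In the latter it held 0 also without VO LV replicate 3 or VO RV replicate 3. Acvrl1, the endothelial receptor that binds BMP10, was at 26.2 to 31.4 FPKM in sham LV, 19.6 to 26.7 in sham RV and, after VO, 19.4 to 22.3 in LV and 21.97 to 29.6 in RV. It was at 19.6 FPKM in sham RV replicate 1 and 22.1 in VO RV replicate 2, the 2 libraries with Bmp10. Id1, a target of BMP signalling, was at 66.6 and 89.5 FPKM in them and at 80.5 to 91.2 in the other RV libraries. Other mediators and targets, named after their values were seen, lay above all 4 in both. Id2 was at 19.4 and 29.6 FPKM against 12.9 to 14.7, Smad6 at 18.5 and 26.3 against 11.02 to 14.5, and Smad7 at 11.2 and 15.3 against 9.38 to 10.01. In sham RV replicate 1 and VO RV replicate 2, 14 and 13 of the 25 genes were above all 4 other RV libraries, compared with 26.1% and 25.1% of all tested genes. Neither Acvrl1 nor Id1, nor the co-receptor Eng or the type II receptor Bmpr2, had an adjusted p under 0.05 in any comparison. Tcap was listed at 0 in all 12 libraries.

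Myl1 (ENSRNOG00000013262, chromosome 9, 73937823 to 73958480), the essential chain of fast skeletal muscle, was scarce. It was at 2.34, 2.98 and 3.005 FPKM in sham LV, 2.18, 1.60 and 3.95 in sham RV and, after VO, 4.86, 1.37 and 7.82 in LV and 3.30, 3.11 and 3.80 in RV, from 24 to 141 reads. The groups overlapped in every comparison, and VO LV alone spanned the whole range. Its log2 difference of VO LV minus sham LV was 0.42 ± 0.44, and -0.04 without VO LV replicate 3. Of 11 other fast skeletal muscle markers in the table, 4 were tested and 0 were DEGs in any comparison, with summed levels of 27.3 to 30.7 FPKM in sham LV, 28.0 to 29.9 in sham RV and, after VO, 29.5 to 35.7 in LV and 27.0 to 38.7 in RV. Most of that was Casq1, at 17.2 to 30.8 FPKM, while the defining heavy chain Myh1 was at 0.0119 FPKM or less in every library. Their part in the level of Myl1 was not tested.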

How the data were processed

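The free walls of 4 groups of neonatal rat ventricles were measured by RNA sequencing in 12 libraries. Per the labels and methods, the authors filtered reads, aligned them with HISAT2 2.0.5 and counted them per gene with featureCounts 1.5.0-p3, and the deposited values are FPKM that the authors made from these counts. The submitters' processing notes also name StringTie 1.3.3b, DESeq2 1.20.0 and GATK 3.7. Genome build and annotation are not given in the sources used here. The raw reads were not used here.

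Values were log2(FPKM / s + 0.5), with s a size factor from median ratios (1.0018 to 1.0071). The 13910 of 32545 genes whose mean FPKM was 0.5 or more entered 1 limma 3.58.1 model of the 4 groups in R 4.3.3 (lmFit, contrasts.fit, eBayes with trend) with 5 comparisons. P-values were Benjamini-Hochberg adjusted over all tested genes. Adding 0.5 understates the change of low genes. FPKM times gene length gave whole reads for 100% of values under 200 reads (tolerance 0.02), and voom on these reads was an alternative. The fit was tested on simulated data. Symbols listed more than once (Mylk4 and Smtn) were left out, and Myl6, Ttn and some other listed symbols were not used here.

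The 8 genes and all gene lists were chosen with earlier results of these data known. Other genes were named by a rule: those called in a list, at most 5 for each list and direction, a fixed set of companions, and the 3 genes with the most similar profile. Hand1 falls under that rule. Alternatives were other pseudocounts, filters and scaling, separate fits, a replicate block, leaving out libraries and, chosen after seeing the data, removal of each library's trend with gene length. A count of 0 was taken to allow 3 reads in every library, and the depth of 14121713 to 16871371 reads sets the FPKM these stand for. Same-numbered LV and RV libraries of the same treatment deviated together only weakly or not at all. Whether they shared an animal was not settled, and numbers were not treated as pairs.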

Additional observations from a re-analysis of the deposited data

Results flagged for a closer look

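The response of LV to VO minus that of RV passed the threshold (limma, adjusted p under 0.05) for 16 of the genes followed, and each is given with its log2 value. Among the 8 members this was Mylk3 (1.09), whose levels were known when it was chosen. The contractile genes were Myh6 (0.89), Myh7 (1.18), Myom1 (0.68), Myom2 (1.02), Unc45b (0.52), Smyd1 (2.68) and Ppp1r12b (1.35). Myom2, an M-band protein gene, is named here outside the rule, after its value was seen. The calcium genes were Atp2a2 (1.23), Ryr2 (1.61) and Slc8a1 (2.63). The others were Furin (0.62), Tbx20 (2.73), the muscarinic receptor gene Chrm2 (2.92), the potassium channel gene Kcnj2 (2.43) and Hand1 (1.59). All 16 values were positive, as were 481 of the 583 genes called. With the gene-length trend of each library removed, 348 genes were called higher and 45 lower. No gene was called without any one of sham LV replicates 1 and 2, sham RV replicate 1, and VO LV replicates 2 and 3.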

How the results depend on the processing

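The number of genes called between sham LV and sham RV (537) was 8 with all genes above 0, 293 in a separate fit, 3 with a replicate block and 9 without both RV libraries that stood apart, and 0 to 872 when 1 library was left out. For VO LV against sham LV (13) it was 56 with a pseudocount of 0.1, 5 with all genes above 0, 183 with a mean FPKM of at least 1, 144 in a separate fit, 3 with a replicate block, 339 with voom, 2 without both libraries, 5 with the gene-length trend removed and 0 to 555 with 1 library left out. For VO RV against sham RV (0) it was 1 with all genes above 0, 2 without both libraries and 0 to 1 with 1 left out. For VO LV against VO RV (1) it was 2 with a replicate block, 2 without both and 1 to 48 with 1 left out. For the difference of the responses (583) it was 21 with all genes above 0, 1 with a replicate block, 2 without both and 0 to 1004 with 1 left out.

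Of the 8 members, 0 instead of 1 were called between the sham ventricles and in the difference of the responses with all genes above 0, with a replicate block, without both libraries, and in some fits with 1 library left out (0 to 1). In VO LV against sham LV, 1 instead of 0 was called with a mean FPKM of at least 1, in a separate fit, with voom, and in some fits with 1 library left out (0 to 1). The member called was Mylk3 each time. The cause of these changes was not tested. Of 860 member values under alternatives, 852 moved by less than the gene's own SD around its group means in the main fit. The other 8 moved by more, and 65 of the 860 had the other sign. For Sln, Bmp10 and Myl7 that SD is widened by the 2 libraries that stood apart, so even large moves stayed below it. Without both libraries Sln and Bmp10 fell under the filter and gave no value. Of the same-numbered libraries, only an LV and an RV library of the same treatment could share an animal. Their deviations correlated at 0.04 to 0.12 in the 3 sham pairs and at -0.22 to 0.05 in the 3 VO pairs. With 3 pairs each, this does not settle whether they shared an animal. The numbers were not taken to pair the libraries. With 0 to 3 reads in 10 libraries, differences in Sln and Bmp10 among those were not detectable at this depth.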
